A study of Mus musculus with 20 samples.

Results

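Fatty acid oxidation enzymes were read in RNAseq of pancreatic islets as 37 genes, all listed by name and all found among the 28632 genes of the count table. They were listed by symbol and role, by a rule that used no measured value, although earlier results of these data were known: the enzymes that activate fatty acids, carry them into mitochondria, shorten them by β-oxidation, handle unsaturated and branched chains, pass the electrons on, or act on the same chains in peroxisomes. Islets came from 12-week-old mice on a C57BL/6N background and were isolated with collagenase and kept in culture for a day. Conditional alleles of the mitochondrial fusion proteins Mfn1 (Mfn1 loxP/loxP), Mfn2 (Mfn2 loxP/loxP) or both were deleted by Ins1-Cre, a Cre placed in the Ins1 locus and active in β-cells, to give β-Mfn1KO (n = 4), β-Mfn2KO (n = 5) and β-Mfn1/2DKO (n = 5) mice. Ctrl mice (n = 6) were labelled wild type, while the methods of the study describe controls that carry either Ins1-Cre or the floxed alleles but not both. No group carried a treatment, and each group held females and males (3 and 3 in Ctrl, 3 and 1 in β-Mfn1KO, 2 and 3 in β-Mfn2KO, 2 and 3 in β-Mfn1/2DKO). Since Cre acts in β-cells and the RNA is from whole islets, α-, δ-, endothelial and other cells were not its target.

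In mitochondrial β-oxidation a fatty acid is first joined to coenzyme A, moved across the inner membrane as a carnitine ester, and then shortened in repeated rounds of dehydrogenation, hydration, a second dehydrogenation and thiolysis, each round releasing acetyl-CoA. In β-cells this pathway is held low when glucose is high, because malonyl-CoA blocks carnitine entry. Hadh, the short-chain hydroxyacyl-CoA dehydrogenase of the second oxidation, is known in β-cells also for binding and restraining glutamate dehydrogenase, and its loss in people causes excess insulin release.

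Total counts ran from 12400687 to 20329064 in Ctrl, 15745680 to 16685381 in β-Mfn1KO, 15110046 to 59533407 in β-Mfn2KO and 65533388 to 122947313 in β-Mfn1/2DKO libraries, so depth and genotype cannot be told apart between Ctrl and β-Mfn1/2DKO except through the pair of deep β-Mfn2KO libraries (replicates 4 and 5). Counts were scaled to a common library size by TMM, and all per-library values are such normalized counts. Targeted transcripts followed the labels. Mfn1 was 1670 ± 114 (mean ± SD) in Ctrl and 1721 ± 49.5 in β-Mfn2KO libraries against 674 ± 68.1 in β-Mfn1KO and 797 ± 165 in β-Mfn1/2DKO libraries. Mfn2 was 3505 ± 519 in Ctrl and 4352 ± 334 in β-Mfn1KO libraries against 1577 ± 80.5 in β-Mfn2KO and 2084 ± 45.1 in β-Mfn1/2DKO libraries. All 10 β-cell markers, among them Ins2, Slc2a2 and Mafa, were detected and were lower in β-Mfn1/2DKO than in Ctrl islets (median log2 fold change -1.05), and all 20 acinar enzyme genes were higher, with the acinar genes at 2.85% and 7.03% of counts in β-Mfn1/2DKO replicates 4 and 5 and between 0.0157% and 1.11% in the other 18 libraries. Of 5 endothelial markers 4 were higher in β-Mfn1/2DKO islets, with a summed count of 8641 to 14029 against 6325 to 9679 in Ctrl. Of 6 ductal markers 3 were higher (Krt19, Muc1 and Krt7, by 2.94, 1.5 and 0.41 on the log2 scale), with a summed count of 33406 to 41802 against 25008 to 33622, and of 5 α-cell markers 1 was higher. The deposited counts leave out genes at 0 in every sample, so no marker found there could be at 0 throughout.

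**Figure D1:**
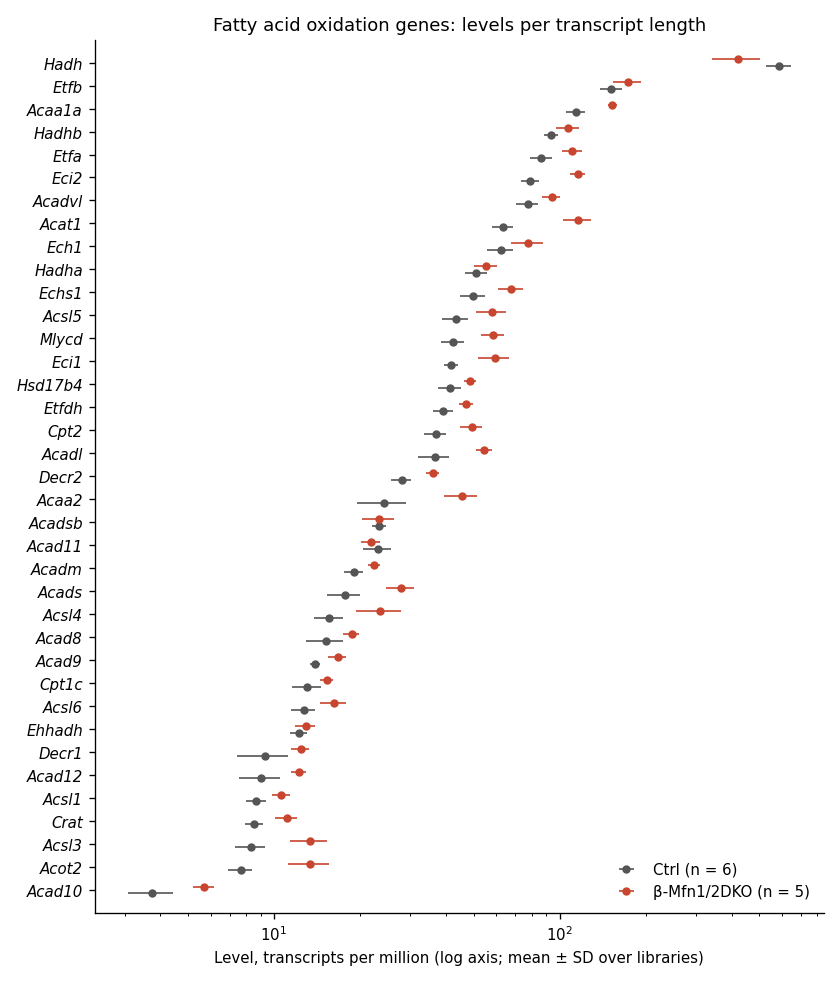
Level of each fatty acid oxidation gene per transcript length in Ctrl (n = 6) and β-Mfn1/2DKO (n = 5) islets. The x axis is in TPM on a log axis, points are means and bars are SDs over libraries. Hadh stands apart at the top in both groups, and Acad10 is lowest in both.

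Hadh was by far the most abundant of these transcripts. Read as TPM, counts divided by transcript length and scaled to a fixed total so that genes can be set beside each other, it stood at 587 ± 57.4 (SD, n = 6) in Ctrl islets and made up 29.8 ± 2.41% of the summed level of the 37 genes. The next in order were Etfb, the β subunit of the electron transfer flavoprotein, at 152 ± 12.9 TPM, the peroxisomal thiolase Acaa1a at 114 ± 8.92, and Hadhb, the thiolase subunit of the mitochondrial trifunctional protein, at 93.5 ± 5.5. Etfa, at 86.2 ± 7.53, lay within an SD of Hadhb, as did Eci2 (78.9 ± 5.6) and Acadvl (77.4 ± 6.9) of each other. Near the bottom Acsl1, Crat, Acsl3 and Acot2 stood at 8.67 ± 0.698, 8.54 ± 0.646, 8.32 ± 1.01 and 7.64 ± 0.754 TPM, and neighbours among them did not differ beyond their spread. Acad10, at 3.75 ± 0.672 TPM, was the lowest. Together the 37 genes took 0.197 ± 0.0108% of the length-scaled counts in Ctrl, 0.193 ± 0.0152% in β-Mfn1KO, 0.205 ± 0.0127% in β-Mfn2KO and 0.223 ± 0.0203% in β-Mfn1/2DKO islets. With all 37 genes the ranges of Ctrl and β-Mfn1/2DKO libraries overlapped (0.178 to 0.209% against 0.189 to 0.243%). Without Hadh the share was 0.138 ± 0.00901% in Ctrl and 0.180 ± 0.0131% in β-Mfn1/2DKO islets. In that case the ranges of these groups did not overlap (0.127 to 0.150% against 0.159 to 0.194%). Acadm, with a log2 fold change of -0.01 in the TMM-scaled counts, went from 19.0 ± 1.45 to 22.4 ± 1.12 TPM between these groups. TPM is a share of each library's total, in which insulin transcripts weigh heavily, so fold changes between groups were taken from the TMM-scaled counts only. The members were steady within groups, with a median coefficient of variation of 8.17% in Ctrl and 5.71% in β-Mfn1/2DKO libraries.

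Promoter sequence was searched for all members, whether or not they changed, in the 250 bases before the RefSeq start (build GRCm38.p6). These were held for 31 of the 37 genes. Acat1, Acaa2, Acad9, Crat, Decr1 and Hsd17b4 had none. Hadh is shown whole because its transcript led both the levels and the falls. The window lies at chr3:131272102-131272351 on the minus strand, and capitals mark its CCAAT box, 239 bases before the start.
Hadh: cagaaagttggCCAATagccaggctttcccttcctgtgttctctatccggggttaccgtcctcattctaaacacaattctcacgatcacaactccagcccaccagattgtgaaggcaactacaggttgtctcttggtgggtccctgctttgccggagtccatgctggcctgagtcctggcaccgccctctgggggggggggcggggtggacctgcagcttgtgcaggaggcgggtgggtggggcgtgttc
The CCAAT letters, searched on both strands, were in 33.85% of all 32851 windows and in the windows of 16 of the 31 genes. Letters of the estrogen-related receptor element (TCAAGGTCA, 0.39% of windows) were found in Acsl6 only, and those of the ATF4 and CHOP element (TTGCATCA, 0.79%) in Echs1 only. The first 9 letters of the direct repeat bound by PPAR and RXR (AGGTCAAAG, 0.38%), the cAMP response element (TGACGTCA, 1.55%) and the E-box (CACGTG, 6.02%) were found in none of the members' windows.
Part of the palindrome of NRF1, a regulator of nuclear genes for mitochondrial proteins (GCATGCGC, 2.26% of windows), was found in 5 genes, which are shown with up to 12 bases on each side and the match in capitals, all on the minus strand.
Acadm (chr3:153944782-153944813): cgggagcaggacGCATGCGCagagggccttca
Etfdh (chr3:79628876-79628907): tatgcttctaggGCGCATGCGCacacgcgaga
Etfa (chr9:55512329-55512360): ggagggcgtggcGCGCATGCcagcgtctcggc
Acad12 (chr5:121618963-121618994): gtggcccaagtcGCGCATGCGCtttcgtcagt
Acad10 (chr5:121660511-121660530): gaggccccgggcGCGCATGC
In Etfdh and Acad12 the full palindrome gives the match on both strands. These are matches of letters, and no binding was measured. Of these 5 genes Acad10 passed the test between β-Mfn1/2DKO and Ctrl islets, and the log2 fold changes of the others were -0.01 (Acadm), 0.01 (Etfdh), 0.12 (Etfa) and 0.19 (Acad12).

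To ask how the pathway's transcripts stood when both mitofusins were deleted, β-Mfn1/2DKO islets were compared with Ctrl islets. Of the 37 genes, 16 changed (Benjamini-Hochberg adjusted p under 0.05 over all genes, edgeR quasi-likelihood test): 13 rose and 3 fell. The split was 12 and 5 under DESeq2, 11 and 5 with DESeq2 size factors in edgeR, and 22 and 1 with total-count scaling, which moves every gene up by 0.14 on the log2 scale in this comparison. Without the acinar-rich β-Mfn1/2DKO replicates 4 and 5, 12 rose and 3 fell. Over all genes tested 16.5% passed, and over the 9921 genes at or above the mean count of the lowest member (Acad10) 35.7% passed, beside 43.2% of the members. Higher calls were 35.1% of the members against 9.59% of all genes and 20.1% of those 9921, and lower calls 8.11% against 6.86% and 15.6%. The median log2 fold change was 0.12 over the members and 0.06 over all genes. Changes were small for the most part: 3 of the 37 passed the fold threshold of 1.5 as well (5.21% of all genes and 5.82% of the 9921 did), with Acaa2 and Acat1 up and Hadh down, all of them among the enzymes of hydration, the second oxidation and thiolysis. Each change is given as a log2 fold change of the scaled counts ± SE, with the edgeR adjusted p, and each 95% interval is approximate, from the SE and a normal distribution. In whole islets, fewer cells of a type and less RNA per cell cannot be told apart. With library depth class as a covariate, which reads depth from the β-Mfn2KO group alone, 2 of the 37 passed (Acat1 and Acsl3).

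**Figure D2:**
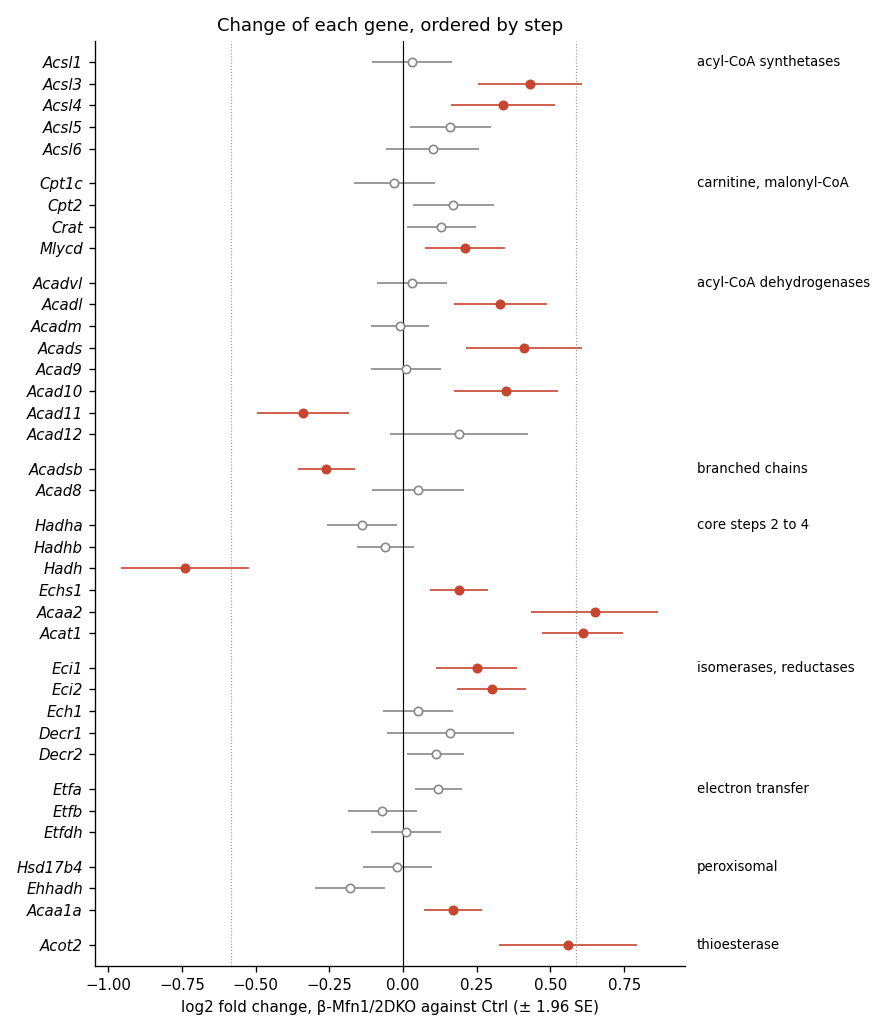
log2 fold change of each gene in β-Mfn1/2DKO against Ctrl islets, ordered by step. Bars are the approximate 95% intervals, filled red points have an adjusted p under 0.05, and dotted lines mark a fold of 1.5. Hadh lies furthest to the left at -0.74, and Acaa2 and Acat1 furthest to the right at 0.65 and 0.61.

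Genes of hydration, the second oxidation and thiolysis did not move together: of 6, 3 rose, 1 fell and 2 did not pass. Hadh (ENSMUSG00000027984, chr3:131233419-131272101 of GRCm38, minus strand) had normalized counts of 20990 to 28240 (median 25050) over the 6 Ctrl libraries, and 15867, 17111, 16464, 13164 and 11705 in the β-Mfn1/2DKO libraries. All 5 β-Mfn1/2DKO libraries lay below every Ctrl library, with the lowest values in replicates 4 and 5, the acinar-rich pair. It changed by -0.74 ± 0.11 (adjusted p = 7.3e-05) on the log2 scale, a level of 0.599 times that in Ctrl. Without that pair it was -0.57 ± 0.12 (adjusted p = 0.0019), and with depth class as a covariate -0.51 ± 0.20 (adjusted p = 0.21). β-cell markers fell in the same libraries, Ins2 by 1.09, Pdx1 by 0.63 and Nkx6-1 by 0.66 on the log2 scale, and the summed β-cell marker counts did not overlap between the groups (2681267 to 3638490 against 6057558 to 9684565). The markers' part in the fall of Hadh was not tested. Because Hadh was the most abundant member, its share of the members' summed TPM went from 29.8 ± 2.41% to 18.8 ± 2.27%.

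Acat1 (ENSMUSG00000032047, chr9:53580522-53610382, minus strand), the mitochondrial acetoacetyl-CoA thiolase used in ketone body and isoleucine breakdown, went the other way. Its counts were 4576 to 5342 (median 5110) in Ctrl and 8362, 7401, 7738, 8226 and 7084 in β-Mfn1/2DKO libraries. No libraries of the groups overlapped, and the change was 0.61 ± 0.07 (adjusted p = 2e-06), the smallest adjusted p of any member. It also held with depth class as a covariate (0.71 ± 0.13, adjusted p = 0.0031). Acaa2 (ENSMUSG00000036880), the thiolase that ends the round for medium and long chains, had 683 to 1024 (median 879.7) in Ctrl and 1285, 1314, 1491, 1476 and 1211 in β-Mfn1/2DKO libraries, again without overlap. Its change was 0.65 ± 0.11 (adjusted p = 0.00028), and 0.76 ± 0.21 (adjusted p = 0.055) with depth class as a covariate. Acat1 thus reached 116 ± 13.1 TPM in β-Mfn1/2DKO islets, the level of Eci2 (116 ± 7.04), from below it in Ctrl (63.3 ± 5.3 against 78.9 ± 5.6).

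Echs1, the short-chain enoyl-CoA hydratase that comes before Hadh in the round, rose slightly, by 0.19 ± 0.05 (adjusted p = 0.015), from 1704 to 1967 (median 1821) in Ctrl to 2015, 2133, 2144, 2207 and 1909 in β-Mfn1/2DKO libraries, where the lowest library lay inside the Ctrl range. With counts thinned to the smallest total the call was lost (0.14 ± 0.06, adjusted p = 0.19). Both subunits of the trifunctional protein, which carries out the last 3 steps on long chains, missed the threshold: Hadha had -0.14 ± 0.06 (adjusted p = 0.1) and Hadhb -0.06 ± 0.05 (adjusted p = 0.48). The interval of the Hadhb change (95%, -0.15 to 0.03) was narrow, and that of Hadha was -0.25 to -0.03. Hadha passed under DESeq2 (-0.17 ± 0.06, adjusted p = 0.011). Hadhb shares a stretch of its sequence with Gm13910, Gm9108 and Gm40264.

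**Figure D3:**
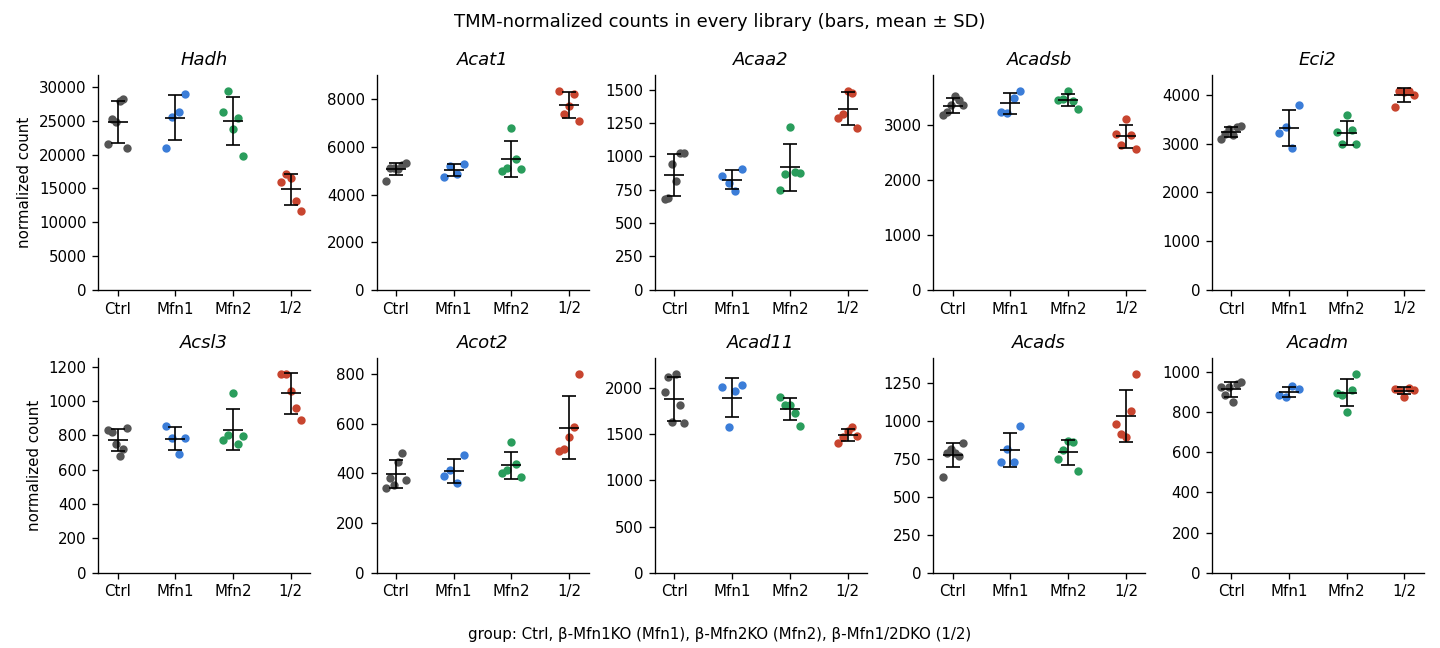
Normalized counts of 10 genes in every library of the 4 groups, with mean ± SD as black bars; axes start at 0. Hadh, Acadsb and Acad11 sit lower in β-Mfn1/2DKO islets, and Acadm is level across the groups. β-Mfn2KO replicate 3 is the highest library of its group for Acat1, Acaa2, Acsl3, Acot2, Eci2, Acads and also Acadsb.

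The first oxidation of the round is shared by acyl-CoA dehydrogenases of different chain length, and of the 8 counted here 3 rose, 1 fell and 4 did not pass. Acads, for short chains, had 634 to 859 (median 792) in Ctrl and 979, 915, 898, 1068 and 1315 in β-Mfn1/2DKO libraries, with no overlap and its highest value in replicate 5. The change was 0.41 ± 0.10 (adjusted p = 0.0062), but 0.28 ± 0.10 (adjusted p = 0.069) without the acinar-rich pair. Acadl, for long chains, rose by 0.33 ± 0.08 (adjusted p = 0.0078) without overlap (1425 to 1837 against 1931 to 2225), and missed the threshold without that pair (0.29 ± 0.10, adjusted p = 0.058). Acad10, the lowest member, rose by 0.35 ± 0.09 (adjusted p = 0.0085), from 276 to 398 to 401 to 446.

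Acadm, for medium chains, was level: 852 to 953 (median 927) in Ctrl and 918, 912, 874, 919 and 911 in β-Mfn1/2DKO libraries, all inside the Ctrl range, with a change of -0.01 ± 0.05 (adjusted p = 0.91) and a 95% interval of -0.11 to 0.09. Acadvl, for very long chains, had 0.03 ± 0.06 (adjusted p = 0.8), and Acad9, known also as an assembly factor of respiratory complex I, had 0.01 ± 0.06 (adjusted p = 0.91). Acad12 had 0.19 ± 0.12 (adjusted p = 0.32), the widest interval of this group (-0.04 to 0.42). Acad11, which acts on hydroxylated fatty acids, was the member of this group that fell: it had 1619 to 2154 (median 1882) in Ctrl and 1404, 1468, 1532, 1572 and 1475 in β-Mfn1/2DKO libraries, all below the lowest Ctrl library, a change of -0.34 ± 0.08 (adjusted p = 0.0035). Acad10 and Acad12 share stretches of sequence, and Dvl2 overlaps Acadvl by 1151 exonic bases on the other strand, so values of these genes are uncertain to the extent that reads were divided between them. Whether counting used strand is not given in the sources used here, which bears also on Acsl5 (Zdhhc6), Crat (Dolpp1), Echs1 (Paox) and Acaa1a (Myd88), each overlapped on the other strand by the gene in brackets. Etfb shares sequence with Gm45233 and Acaa1a with Acaa1b.

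Among the dehydrogenases of branched chains, Acadsb, of isoleucine breakdown, fell. Its counts were 3181 to 3525 (median 3357) in Ctrl and 2838, 2642, 3104, 2823 and 2568 in β-Mfn1/2DKO libraries, without overlap. The change was -0.26 ± 0.05 (adjusted p = 0.00067), with a mean ± SD of 3351 ± 130.0 in Ctrl and 2795 ± 208 in β-Mfn1/2DKO islets. With total-count scaling neither Acadsb (-0.12) nor Acad11 passed. Acad8, of valine breakdown, did not pass (0.05 ± 0.08, adjusted p = 0.74).

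Acyl-CoA synthetases, which activate fatty acids, rose in 2 of 5 cases. Acsl3, found at the endoplasmic reticulum and lipid droplets, had 677 to 840.5 (median 783) in Ctrl and 1154, 1159, 1059, 959 and 889 in β-Mfn1/2DKO libraries, higher in all 5 than in any Ctrl library, with a change of 0.43 ± 0.09 (adjusted p = 0.0013). It was as large without the acinar-rich pair (0.56 ± 0.09) and with depth class as a covariate (0.61 ± 0.16, adjusted p = 0.043). Exons of Utp14b share 244 bases with Acsl3 on the same strand. Acsl4, which prefers arachidonate, rose by 0.34 ± 0.09 (adjusted p = 0.0078), although replicate 5 (1872 to 2702 over the 5 libraries) lay inside the Ctrl range. Acsl5, the most abundant of the family at 43.4 ± 4.6 TPM, had 0.16 ± 0.07 (adjusted p = 0.11), Acsl1 0.03 ± 0.07 (adjusted p = 0.8) and Acsl6 0.10 ± 0.08 (adjusted p = 0.45).

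Of the carnitine enzymes, none passed: Cpt2, which rebuilds the acyl-CoA inside the mitochondrion, had 0.17 ± 0.07 (adjusted p = 0.11), Crat, which makes short acylcarnitines, 0.13 ± 0.06 (adjusted p = 0.15), and Cpt1c, the brain-type isoform of the outer-membrane enzyme, -0.03 ± 0.07 (adjusted p = 0.86). Mlycd, which breaks down malonyl-CoA, rose by 0.21 ± 0.07 (adjusted p = 0.045), from 1829 to 2314 in Ctrl to 2334 to 2637 in β-Mfn1/2DKO libraries. This call was at the edge of the threshold and was lost with the acinar score as a covariate (adjusted p = 0.084), without the acinar-rich pair (0.087), with thinned counts (0.19) and when any of 8 libraries was left out in turn.

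Enzymes for unsaturated chains shifted up where they moved. Eci2, an enoyl-CoA isomerase of mitochondria and peroxisomes, had 3088 to 3353 (median 3246) in Ctrl and 3758, 4078, 4048, 4083 and 4005 in β-Mfn1/2DKO libraries, each above every Ctrl library, a change of 0.30 ± 0.06 (adjusted p = 0.00069). Its mitochondrial relative Eci1 rose by 0.25 ± 0.07 (adjusted p = 0.014), a call that was lost with thinned counts (0.19 ± 0.08, adjusted p = 0.11). Ech1, a dienoyl-CoA isomerase, had 0.05 ± 0.06 (adjusted p = 0.64), and the dienoyl-CoA reductases Decr1 and Decr2, mitochondrial and peroxisomal, had 0.16 ± 0.11 (adjusted p = 0.36) and 0.11 ± 0.05 (adjusted p = 0.12). Electron transfer flavoprotein and its oxidoreductase, through which the first oxidation feeds the respiratory chain, did not pass: Etfa had 0.12 ± 0.04 (adjusted p = 0.061), Etfb -0.07 ± 0.06 (adjusted p = 0.54) and Etfdh 0.01 ± 0.06 (adjusted p = 0.97). Etfa lay close to the threshold and passed when any of 6 libraries was left out.

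In the peroxisome, Acaa1a rose by 0.17 ± 0.05 (adjusted p = 0.017), with 4444 to 5068 in Ctrl and 5233 to 5547 in β-Mfn1/2DKO libraries. The bifunctional enzymes Hsd17b4 and Ehhadh had -0.02 ± 0.06 (adjusted p = 0.86) and -0.18 ± 0.06 (adjusted p = 0.059). All 5 libraries of Ehhadh (723 to 785) nevertheless lay below the lowest Ctrl library (793 to 961). Ehhadh passed under DESeq2, with DESeq2 size factors in edgeR, with genes of low count filtered out and with thinned counts. The Acaa1a call was lost with DESeq2 size factors in edgeR and with depth class as a covariate. Acot2, a thioesterase that frees fatty acids from coenzyme A in the matrix, had 343 to 484 (median 378) in Ctrl and 489.5, 498, 546, 588 and 802 in β-Mfn1/2DKO libraries. Every β-Mfn1/2DKO library lay above Ctrl, with replicate 5 highest, and the change was 0.56 ± 0.12 (adjusted p = 0.0026), or 0.39 ± 0.11 (adjusted p = 0.028) without the acinar-rich pair. Acot2 shares a part of its sequence with Acot1 and other genes of its cluster, so its counts depend on how shared reads were divided.

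Counted without any model, the libraries of β-Mfn1/2DKO and Ctrl islets did not overlap for 14 of the 37 genes, 10 higher and 4 lower in β-Mfn1/2DKO. Over all genes 10.6% did not overlap (6.56% higher, 4.04% lower), and over the 9921 genes at the members' counts 22.3% (12.7% higher, 9.57% lower), beside 37.8% of the members.

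To ask how these genes stood when a single mitofusin was deleted, each single knockout was compared with Ctrl. No member passed in β-Mfn1KO or in β-Mfn2KO islets, and few genes did in all (8 genes or 0.0279% in β-Mfn1KO, 16 genes or 0.0559% in β-Mfn2KO). At an unadjusted p under 0.05 there was 1 member in each comparison, beside 7.44% of all genes in β-Mfn1KO and 4.22% in β-Mfn2KO, and DESeq2 called 0 members in both. The fold changes were narrow, from -0.13 to 0.19 on the log2 scale in β-Mfn1KO and from -0.19 to 0.17 in β-Mfn2KO. The member with the lowest p in β-Mfn1KO was Eci1 (0.19 ± 0.08, adjusted p = 0.62), with counts of 1340, 1386, 1078 and 1283 against 1036 to 1192 (median 1132) in Ctrl. In β-Mfn2KO it was Etfb (-0.19 ± 0.06, adjusted p = 0.93), whose 5 libraries (2736, 2772, 2824, 2840 and 2856) all lay below those of Ctrl (2896 to 3582). Hadh had 20964, 25566, 26343 and 29009 in β-Mfn1KO and 26233, 29431, 23797, 25395 and 19799 in β-Mfn2KO libraries, and 95% intervals of -0.20 to 0.27 and -0.21 to 0.23 for its log2 change. For Acat1, β-Mfn1KO libraries had 4745, 5219, 4868 and 5292 and β-Mfn2KO libraries 4988, 5135, 6781, 5476 and 5073, with replicate 3 of the latter above the other 4 and below every β-Mfn1/2DKO library. These comparisons share the Ctrl libraries.

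**Figure D4:**
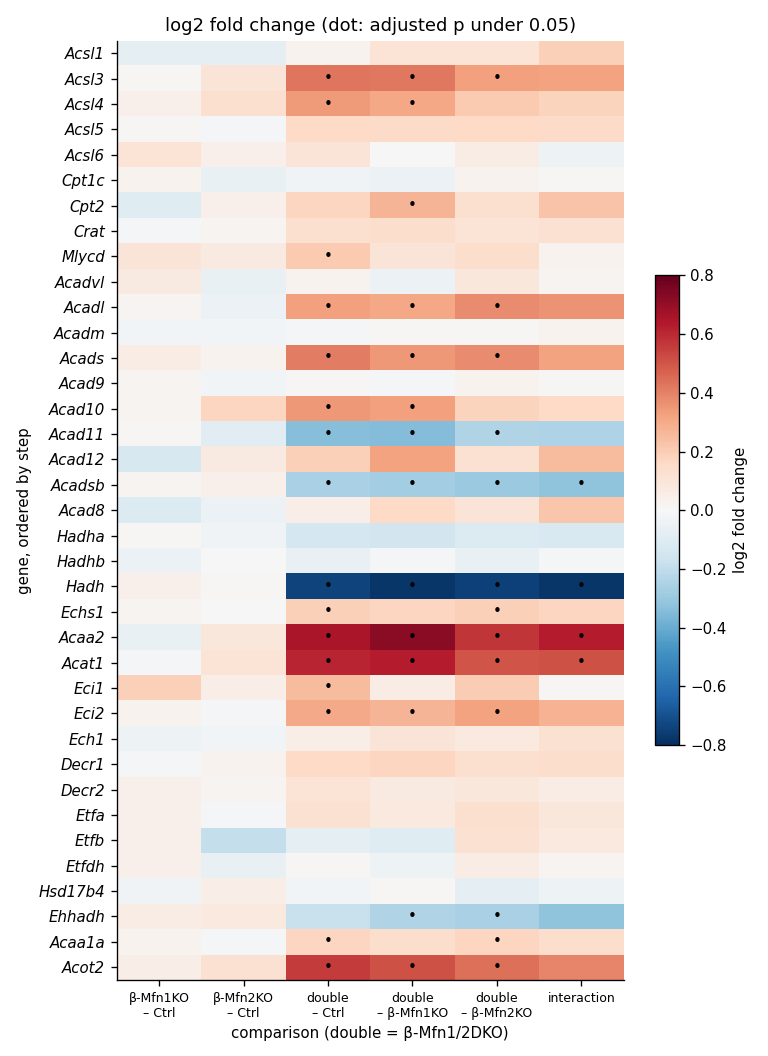
log2 fold change of the 37 genes (rows, ordered by step) in 6 comparisons (columns); colour runs from -0.8 (blue) to 0.8 (red) and a dot marks an adjusted p under 0.05. The single knockout columns are pale with no dots, and the last column is the interaction, with dots at Acadsb, Hadh, Acaa2 and Acat1.

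Set against each single knockout, β-Mfn1/2DKO islets differed in members at rates near those of all genes at the members' counts. Against β-Mfn2KO, 13 members passed (9 higher and 4 lower), where 13.0% of all genes (7.09% higher, 5.9% lower) and 29.0% of those at the members' counts passed. Against β-Mfn1KO, 14 passed (10 higher and 4 lower), where 17.4% of all genes (9.67% higher, 7.69% lower) and 37.1% of those at the members' counts did. These comparisons share the β-Mfn1/2DKO libraries. The counts fell to 8 without β-Mfn2KO replicate 1 and to 9 without β-Mfn1KO replicate 2, and were 22 and 23 with total-count scaling, 6 and 3 with depth class as a covariate. Against all 3 other groups 10 genes passed in 1 direction: Acsl3, Acadl, Acads, Acaa2, Acat1, Eci2 and Acot2 were higher, and Acad11, Acadsb and Hadh lower. Of all genes 8.82% did so (5.0% higher, 3.81% lower), and of those at the members' counts 21.0% (11.3% higher, 9.65% lower), beside 27.0% of the members. Hadh had -0.75 ± 0.12 (adjusted p = 0.00014) against β-Mfn2KO and -0.78 ± 0.12 (adjusted p = 9.5e-05) against β-Mfn1KO, and Acat1 0.50 ± 0.07 (adjusted p = 6.1e-05) and 0.63 ± 0.08 (adjusted p = 6.6e-06). Acaa2 had 0.57 ± 0.12 (adjusted p = 0.0021) against β-Mfn2KO, where replicate 3 of that group (750.4, 869, 1217, 882 and 873 over the 5 libraries) reached the lowest β-Mfn1/2DKO library. Ehhadh, short of the threshold against Ctrl, passed against both, with -0.26 ± 0.07 (adjusted p = 0.0099) and -0.24 ± 0.07 (adjusted p = 0.023), and Cpt2 passed against β-Mfn1KO, at 0.27 ± 0.08 (adjusted p = 0.018), and not against β-Mfn2KO, at 0.13 ± 0.07 (adjusted p = 0.27), a contrast between comparisons that was not tested.

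The deep β-Mfn2KO libraries 4 and 5 allow a comparison at nearer depth, which was added after the data were seen. Their totals (55962873 and 59533407) still lay below those of all β-Mfn1/2DKO libraries (65533388 to 122947313). Both were male, while β-Mfn1/2DKO held females and males, so sex was not balanced in this comparison. Against that pair alone, 6 of the 37 members passed, where 6.3% of all genes did. The share of genes at the members' counts is not given for this comparison. Against all β-Mfn2KO libraries it was 29.0%, beside 13.0% of all genes. Members that passed against the pair were Eci2 (0.40 ± 0.06, adjusted p = 0.0087), Acadl (0.38 ± 0.07, 0.015), Cpt2 (0.27 ± 0.06, 0.039), Acat1 (0.61 ± 0.09, 0.0067), Acsl3 (0.48 ± 0.12, 0.046) and Acaa2 (0.68 ± 0.09, 0.0057). Hadh had -0.55 ± 0.16 (adjusted p = 0.085) there: its counts were 25395 and 19799 in the deep pair, 26233, 29431 and 23797 in the shallower β-Mfn2KO libraries, and 17111 in the highest β-Mfn1/2DKO library.

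Whether the change with loss of Mfn1 differed with and without Mfn2 was read from the interaction, the change from β-Mfn2KO to β-Mfn1/2DKO minus the change from Ctrl to β-Mfn1KO. It passed for 4 of the 37 members, 2 upward and 2 downward, where 5.92% of all genes (2.88% upward, 3.03% downward) and 14.2% of those at the members' counts passed. Hadh had -0.78 ± 0.17 (adjusted p = 0.0059) and Acadsb -0.32 ± 0.07 (adjusted p = 0.01), the change from Ctrl to β-Mfn1KO being 0.04 ± 0.12 (adjusted p = 1) and 0.02 ± 0.05 (adjusted p = 1) for these. Acat1 had 0.51 ± 0.11 (adjusted p = 0.0046) and Acaa2 0.63 ± 0.17 (adjusted p = 0.032), in the upward direction. For the other 33 members the interaction did not pass: Acot2 had 0.39 ± 0.19 (adjusted p = 0.27), with a 95% interval of 0.02 to 0.76, Acadl 0.36 ± 0.13 (adjusted p = 0.1) and Acsl3 0.32 ± 0.14 (adjusted p = 0.19). With depth class as a covariate 1 member passed, and 7 did without β-Mfn1KO replicate 4, 7 without β-Mfn2KO replicate 3 and 7 with total-count scaling.

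Genes around the pathway, from lists of transporters, peroxisomal enzymes, thioesterases, other synthetases, ketone body enzymes, branched-chain enzymes and regulators, were read in the same fit. Of 74 found, 10 rose and 12 fell in β-Mfn1/2DKO against Ctrl islets. Of all genes 16.5% passed, and of those at the members' counts 35.7%, although some of the 74 lay below those counts. Higher calls were 9.59% of all genes and 20.1% of those at the members' counts, and lower calls 6.86% and 15.6%. These shares stand beside the count of every list that follows. With depth class as a covariate 2 passed in all. Of 9 genes of fatty acid uptake and the carnitine shuttle 2 rose and none fell. Cpt1a, the malonyl-CoA-sensitive carnitine palmitoyltransferase that sets entry into mitochondria, had 1742 to 2537 (median 2091) in Ctrl and 3690, 3319, 4026, 3886 and 4286 in β-Mfn1/2DKO libraries. No library overlapped, and the change was 0.85 ± 0.12 (adjusted p = 1.7e-05), 1.8 times the Ctrl level and more than for any of the 37 enzymes. β-Mfn1KO libraries had 1764, 1490, 1714 and 1924 and β-Mfn2KO libraries 2124, 1881, 3214, 2156 and 1866, with replicate 3 again the highest of its group, and the interaction was 1.09 ± 0.18 (adjusted p = 0.00075). Slc25a20, the carnitine-acylcarnitine carrier of the inner membrane, rose by 0.44 ± 0.09 (adjusted p = 0.0012), from 693 to 871 (median 811) to 968, 972, 1094, 1208 and 1072.

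**Figure D5:**
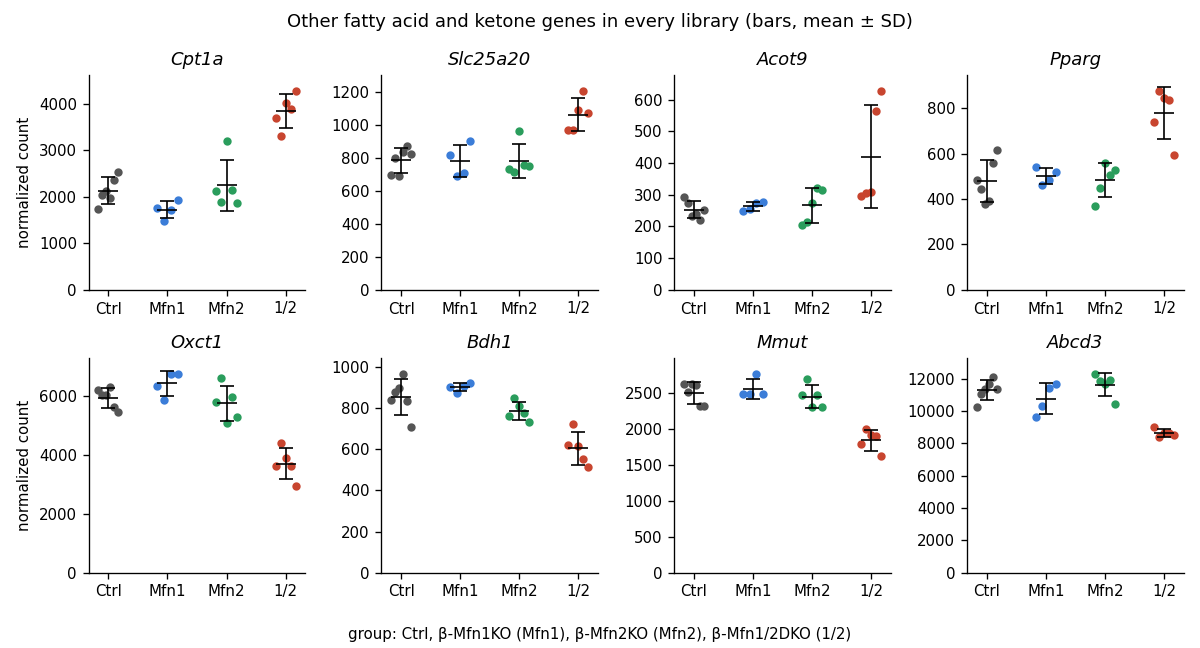
Normalized counts of 8 genes around the pathway in every library, with mean ± SD as black bars; axes start at 0. Cpt1a and Slc25a20 sit higher in β-Mfn1/2DKO islets, and Oxct1, Bdh1, Mmut and Abcd3 lower.

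Of 5 other ketone body enzymes 2 fell and none rose, where 6.86% of all genes and 15.6% of those at the members' counts fell. Oxct1, which activates acetoacetate and comes just before Acat1 in ketone body breakdown, had 5432 to 6304 (median 6009) in Ctrl and 3626, 4381, 3884, 3628 and 2923 in β-Mfn1/2DKO libraries, with no overlap and a change of -0.68 ± 0.08 (adjusted p = 3.6e-06). Bdh1, the hydroxybutyrate dehydrogenase, had 707 to 968 (median 859) in Ctrl and 619.9, 725, 615, 554 and 513 in β-Mfn1/2DKO libraries, a change of -0.50 ± 0.08 (adjusted p = 0.00013). Acat1, the last enzyme of that path, rose.

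Of 18 branched-chain and propionyl-CoA genes 5 fell and none rose, where 6.86% of all genes and 15.6% of those at the members' counts fell. Without the acinar-rich β-Mfn1/2DKO replicates 4 and 5, Dbt, Mccc1 and Gcdh lost their calls (adjusted p = 0.096, 0.31 and 0.073). Mmut, the mitochondrial methylmalonyl-CoA mutase, had -0.44 ± 0.06 (adjusted p = 1.2e-05) and Bcat2, a branched-chain aminotransferase, -0.35 ± 0.09 (adjusted p = 0.01). Both passed without that pair as well (adjusted p = 0.00033 and 0.018). Acadsb, in the same breakdown, fell too. Among the peroxisomal genes the fatty acid transporter Abcd3 (-0.39 ± 0.06, adjusted p = 6.4e-05) fell and Amacr rose. Of 9 thioesterases Acot9 (0.73 ± 0.18, adjusted p = 0.0068) and Them4 (0.46 ± 0.11, adjusted p = 0.0073) rose and Acot11 fell, and of 6 other synthetases Acsf3 rose (0.30 ± 0.06, adjusted p = 0.00057). Acot9 had 296, 305, 309, 565 and 629 in the β-Mfn1/2DKO libraries and 222 to 294 in Ctrl, highest in the acinar-rich replicates 4 and 5, and without that pair it had 0.29 ± 0.13 (adjusted p = 0.2). The Acot11 call was lost without the pair as well (adjusted p = 0.27). Of 13 regulators 4 rose and 2 fell. Acacb, the acetyl-CoA carboxylase that makes malonyl-CoA at the outer membrane, had 1.67 ± 0.43 (adjusted p = 0.0084), but its libraries were 57.8, 61.3, 47.3, 148 and 363 in β-Mfn1/2DKO and 24.9 to 55.4 in Ctrl, with the high values in the acinar-rich replicates 4 and 5. Without that pair it had 0.41 ± 0.27 (adjusted p = 0.4). Acaca, the other acetyl-CoA carboxylase on the list, had more counts (2183 to 2477 in Ctrl) and went the other way. Its change was -0.22 (adjusted p = 0.0027), and -0.19 ± 0.06 (adjusted p = 0.044) without the pair. Pparg rose by 0.70 ± 0.12 (adjusted p = 0.00029). Pdk4, a kinase that inhibits pyruvate dehydrogenase, had 1183 to 2864 in Ctrl and 2468, 2469, 2645, 2115 and 3304 in β-Mfn1/2DKO libraries, a change of 0.45 ± 0.15 (adjusted p = 0.041), and 0.43 ± 0.16 (adjusted p = 0.085) without the pair. Of genes named after their values were seen, Ppara, the classic regulator of fatty acid oxidation genes, had few counts, at 6.08 to 31.1 in Ctrl and 13.8 to 27.4 in β-Mfn1/2DKO libraries, and its coactivator Ppargc1a had 0.16 ± 0.24 (adjusted p = 0.71). Prkaa1, a catalytic subunit of AMP-activated kinase, had -0.33 ± 0.06 (adjusted p = 0.00019).

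Sex was read across the groups, since each held females and males. No member passed for sex (lowest adjusted p = 0.079), with log2 differences of males against females from -0.08 to 0.27, and 36 of the 28632 genes passed. At an unadjusted p under 0.05 there were 13 of the 37 members (35.1%), beside 10.6% of all genes. With sex as a covariate 16 members passed between β-Mfn1/2DKO and Ctrl islets, as without it.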

How the data were processed

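Islet RNA from the 20 mice was sequenced as paired-end reads on NovaSeq-6000. Per the submitters' processing notes and the methods, the authors trimmed reads with cutadapt 2.3, checked them with FastQC 0.11.8, aligned them with STAR 2.6.1b to GRCm38, counted genes with RSEM 1.3.1 and deposited raw counts per gene, leaving out genes at 0 in every sample. A depth-normalized table was not used here. Whole-number counts were fitted with edgeR 4.0.16 (R 4.3.3) by the quasi-likelihood test with TMM scaling, a coefficient per group and Benjamini-Hochberg adjustment over 28632 genes. Interactions were contrasts of the same fit. TPM used the length of the APPRIS principal transcript in GENCODE. Depth ran from 12400687 to 122947313 counts. The lowest member had a mean of 371 normalized counts. Replicates are separate samples of a group in the labels, which name no litters, so p-values measure the spread between these samples.

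The 37 genes and all lists were chosen with earlier results of these data known. All members are named by role; values in every library were given for members past both thresholds, the 6 others with the smallest adjusted p, and Hadh and Acadm. Neighbour genes were named where they passed, up to 6 a direction by fold. Slc25a20, Acsf3, Amacr, Acot11, Prkaa1, Ppara, Ppargc1a, Acaca, Dbt, Mccc1 and Gcdh were added after their values were seen. A neighbour gene that met the rule is not reported here. Of 76 neighbour genes 74 were found. Alternatives were DESeq2 1.42.0, other scalings, filterByExpr, sex, number, acinar score or depth class as covariates, thinned counts and each library left out. A comparison with the deep β-Mfn2KO pair was added after seeing the data. No count column was left without a sample.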

Additional observations from a re-analysis of the deposited data

Results flagged for a closer look

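In the 148 combinations of the 37 genes with the 4 groups, 12 had a library set apart from the rest of its group by Dixon's test, which chance gives in about 1 of 20. β-Mfn2KO replicate 3 stood high for Acsl3 (1047, the other 4 between 751 and 799.7), Acaa2 (1217, others 750.4 to 882) and Acat1 (6781, others 4988 to 5476). β-Mfn2KO replicate 5 was low for Acad9 (1146, others 1296 to 1311), and replicate 2 low for Eci1 (1025, others 1176 to 1219). In β-Mfn1/2DKO islets the low libraries were replicate 2 for Cpt2 (2097, others 2339 to 2411), replicate 3 for Acadm (874, others 911 to 919), replicate 5 for Acad9 (1254, others 1306 to 1313) and replicate 1 for Eci2 (3758, others 4005 to 4083), and replicate 4 was high for Crat (1032, others 888 to 916). In β-Mfn1KO islets replicate 4 was high for Acadl (1957, others 1540 to 1597) and replicate 2 low for Acad11 (1576, others 1967 to 2029).

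The change that went with loss of Mfn1 differed between islets with and without Mfn2 for 4 genes, by the test of that difference in edgeR: Hadh (-0.78, adjusted p = 0.0059), Acadsb (-0.32, adjusted p = 0.01), Acat1 (0.51, adjusted p = 0.0046) and Acaa2 (0.63, adjusted p = 0.032).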

How the results depend on the processing

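Depth class as a covariate moved the results most. It left 2 members passing between β-Mfn1/2DKO and Ctrl (16 without it), 6 against β-Mfn2KO (13), 3 against β-Mfn1KO (14), 1 in the interaction (4) and 2 neighbour genes (22). The comparison with the deep β-Mfn2KO pair alone left 6. Total-count scaling gave 22 against β-Mfn2KO, 23 against β-Mfn1KO and 7 in the interaction. Against β-Mfn1KO the acinar score as a covariate gave 9 and thinned counts gave 9. Other alternatives kept every count of members within 1.5 times its value, and both single knockouts stayed at 0 under all. Leaving out each library in turn gave 15 to 18 members against Ctrl, 3 to 4 past both thresholds, 8 to 14 against β-Mfn2KO, 9 to 16 against β-Mfn1KO, 3 to 7 in the interaction, and 17 to 23 neighbour genes. No member with a call changed sign under any alternative. Across the alternatives other than leaving out a library or depth class, calls of single members were lost in 12 and gained in 20 of 407 cases, and with depth class 14 of the 16 were lost. The cause of these changes was not tested, and depth and genotype cannot be told apart in the β-Mfn1/2DKO group.

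The labels do not say whether samples of the same number in different groups are paired. Deviations from the group means correlated at -0.0449 to 0.202 between same-numbered Ctrl and β-Mfn1/2DKO libraries. Over libraries of all groups the mean correlation between groups was 0.127 for the same number and -0.028 for other numbers. For other numbers of the same sex it was 0.096. These values do not settle whether the samples were paired. With the replicate number as a block, 17 members passed against Ctrl, 13 against β-Mfn2KO, 15 against β-Mfn1KO and 4 in the interaction. The interaction needs all 4 groups, so that fitting only the groups compared was not run for it.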
